A study of Mus musculus with 10 samples.

Results

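Ganglion cell genes were followed in RNA of whole retina. The genes were 10 that are commonly used to mark retinal ganglion cells, chosen by name, namely Rbpms, Pou4f1, Isl2, Slc17a6, Thy1, Nefl, Nefm, Nefh, Sncg and Stmn2. Of these, 9 were among the 11702 genes of the deposited gene table, and Isl2 was found in the transcript table alone. The libraries came from 10 female mice. The groups were WT DMSO (4 mice, W1 to W4), rd10 DMSO (3 mice, D1 to D3) and rd10 HAL, treated with halofantrine (3 mice, H1 to H3), named here in the order of their labels. The rd10 mice were of the strain B6.CXB1-Pde6brd10/J, in which a mutation of Pde6b, a subunit of the rod phosphodiesterase, is followed by the loss of rods and later of cones. The drug was an antimalarial given into the vitreous at 20 μM in 1 μL at P10 and P24, the vehicle was given in the same way to both other groups, and retinas were collected at P36. W1 to W4, D1, D2 and H1 were labelled batch 1 and D3, H2 and H3 were labelled batch 2, so all WT libraries were in batch 1. The library titles also carry a set name, whose meaning is not stated: W1 to W3 share a name, W4 has a longer form of it that no other library has, D1, D2 and H1 share another, H2 and H3 share another, and D3 has one of its own. Within batch 1 the set and the genotype therefore cannot be told apart. No uninjected retina was among these libraries.

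Ganglion cells are the output neurons of the retina. They receive signals from bipolar and amacrine cells, fire action potentials and send their axons through the optic nerve to the brain, so their RNA is rich in messages for long axons and for glutamate release. In retinal degeneration they outlive the photoreceptors, and they are the cells that optogenetic and implant approaches address. They are a small share of retinal cells, and none of the genes is expressed in ganglion cells alone: Slc17a6, Thy1, Stmn2 and the neurofilament genes are used by many neurons, while Rbpms and Pou4f1 are closer to specific within the retina. In RNA of whole retina, a change in the number of cells and a change in RNA per cell cannot be told apart.

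The promoters of the genes are shown for those that the RefSeq table for GRCm38.p6 holds, which was 4 of the 10 genes. They are printed because 3 of these genes rose in the comparison with WT without the library W4 below, and they let a reader see how unlike their start regions are. Each sequence runs from 250 bases before the RefSeq start to 50 bases after it, on the strand of the gene, and capitals mark GGGCGG or its complement CCGCCC, the letters of a GC box.
Pou4f1, chr14:104467950-104468249, minus strand: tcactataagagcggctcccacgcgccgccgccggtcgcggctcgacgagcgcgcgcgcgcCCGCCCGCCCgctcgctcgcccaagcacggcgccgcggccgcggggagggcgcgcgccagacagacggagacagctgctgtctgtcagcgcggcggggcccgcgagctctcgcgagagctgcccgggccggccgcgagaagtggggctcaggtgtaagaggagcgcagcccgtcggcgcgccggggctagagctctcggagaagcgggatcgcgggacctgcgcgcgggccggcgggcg
Isl2, chr9:55540899-55541198, plus strand: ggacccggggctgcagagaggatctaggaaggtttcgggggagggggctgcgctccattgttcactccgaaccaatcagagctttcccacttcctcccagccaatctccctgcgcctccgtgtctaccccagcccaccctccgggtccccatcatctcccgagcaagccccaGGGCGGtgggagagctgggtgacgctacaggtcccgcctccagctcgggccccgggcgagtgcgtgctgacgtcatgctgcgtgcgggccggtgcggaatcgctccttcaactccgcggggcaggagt
Sncg, chr14:34374620-34374919, minus strand: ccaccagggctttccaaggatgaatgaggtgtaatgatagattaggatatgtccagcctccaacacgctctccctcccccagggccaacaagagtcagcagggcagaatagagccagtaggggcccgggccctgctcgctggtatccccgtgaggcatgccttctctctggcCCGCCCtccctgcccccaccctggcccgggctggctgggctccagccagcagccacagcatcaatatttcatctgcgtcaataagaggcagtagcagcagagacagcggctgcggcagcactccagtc
Slc17a6, chr7:51621580-51621879, plus strand: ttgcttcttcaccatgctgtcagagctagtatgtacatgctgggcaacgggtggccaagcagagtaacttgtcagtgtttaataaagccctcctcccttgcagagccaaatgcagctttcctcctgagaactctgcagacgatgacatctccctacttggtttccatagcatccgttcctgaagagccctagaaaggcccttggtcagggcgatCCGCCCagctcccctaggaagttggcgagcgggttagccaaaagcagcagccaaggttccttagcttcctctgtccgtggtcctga
The Pou4f1 promoter had a G and C content of 78.3% and 2 overlapping matches to these letters, the first beginning 189 bases before the start. Isl2 had a G and C content of 67.3%, Sncg of 61.3% and Slc17a6 of 53.7%, each with 1 match. Of 32851 promoters of the same length, 35.7% held GGGCGG on either strand. TATAAA, the letters of a TATA box, was found in none of the windows of these genes on either strand (0 matches each) and in 13.6% of all promoters. TAATTA, a core that many homeodomain proteins bind and that reads the same on both strands, was found only in the window of a second Slc17a6 start, 81 bases before it, and in 5.29% of all promoters. That second window, not printed here, had a G and C content of 43% and 0 matches to GGGCGG. These matches describe the letters and say nothing of what binds there.

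The depth was 15512105 to 38160384 counts per library, with D3 the lowest. The library labelled WT replicate 4, W4, went against its label. In W1, W2 and W3, Pde6b had 2699, 2850 and 2855 CPM (counts relative to the TMM-scaled library total). W4 had 93.1 CPM, below the 125 to 387 CPM of the 6 rd10 libraries. The 15 rod markers summed to 87389 to 91932 CPM in W1 to W3 and to 3852 CPM in W4. The 9 genes and the lists are therefore given against WT with W4 and without it, and single genes of the lists without W4 unless stated. The fit without W4 was chosen after seeing the data. Markers of the retina's other cell classes were present in all libraries. The sum of 6 pigment epithelium markers varied within groups, with 48.2 CPM in W2 and 294 CPM in W3. It was 164 to 487 CPM in the rd10 DMSO libraries, with 436 CPM in D3, and 132 to 233 CPM in the rd10 HAL libraries. The sum of 6 blood and lens markers was 12.25 CPM in H1 and 119 CPM in H2.

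Levels per length put the genes in an order. In the rd10 DMSO retinas the counts divided by the mean length of each gene's transcripts gave 149 to 168 CPM per kb for Thy1, a surface protein of the immunoglobulin superfamily, and 124 to 165 CPM per kb for Nefl, the light neurofilament chain, which overlapped. Sncg, gamma-synuclein, followed at 103 to 116 CPM per kb. Stmn2, a tubulin-binding protein of growing axons, at 46.4 to 48.8, and Nefm, the medium neurofilament chain, at 41.2 to 49.2 CPM per kb, could not be separated. Nefh, the heavy chain, was at 29.4 to 32.8, Slc17a6, the vesicular glutamate transporter VGLUT2, at 26.1 to 27.6 and Rbpms, an RNA-binding protein, at 23.0 to 24.4 CPM per kb. Pou4f1, the POU-homeodomain transcription factor Brn3a, was lowest at 8.27 to 11.1 CPM per kb. In W1 to W3 Nefl, at 117 to 132, and Thy1, at 107 to 121 CPM per kb, again overlapped, and Pou4f1 was again lowest at 6.63 to 6.92 CPM per kb. By CPM not divided by length, Nefl was at the 98.6th and Pou4f1 at the 40.2nd percentile of all genes.

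The comparison of rd10 DMSO with WT DMSO asks how the RNA of ganglion cells stood in a retina whose rod RNA was low. With W4 kept, 0 of the 9 genes was called by the quasi-likelihood test of edgeR (Benjamini-Hochberg adjusted p-value below 0.05), as was 0.0% of the 11698 genes tested. At an unadjusted p-value under 0.05 there was 1 of the 9, Nefh, against 26.6% of all genes. DESeq2 also called 0 of the 9 genes in these libraries. Without W4, 8 of the 9 genes rose, and Nefl did not pass the test, where 32.3% of 11696 genes were called higher and 29.9% lower. Their log2 fold changes lay between 0.26 and 0.81 with a median of 0.44, against a median of -0.01 over all genes tested. This direction depended on what the libraries were scaled to. When the libraries were scaled to amacrine and bipolar genes instead, 7 of the 9 genes fell and 0 rose, where 72.4% of all genes were called lower and 6.0% higher. The median log2 fold change was then -0.23 over the 9 genes and -0.67 over all genes. Both readings are given below.

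Rbpms, a selective marker of ganglion cells within the retina, had the highest log2 fold change of the 9 under TMM on all genes, and it was not called in the fit scaled to amacrine and bipolar genes, at 0.15. It measured 32.4, 30.3 and 29.7 CPM in W1 to W3 and 58.5 CPM in W4, and at 54.6, 51.7 and 54.4 CPM in D1 to D3. The rd10 DMSO libraries lay above W1 to W3 with a wide gap and below W4. From 30.8 ± 1.44 CPM (SD, n = 3) it rose to 53.6 ± 1.65 CPM (SD, n = 3), 1.74-fold, and the log2 fold change was 0.81 (standard error 0.07, edgeR adjusted p-value 6.27e-05). With W4 in the WT group the log2 fold change was 0.50 (standard error 0.25, adjusted p-value 0.200). Pou4f1 measured 22.8, 22.4 and 21.8 CPM in W1 to W3, 39.7 CPM in W4, and 35.5, 36.6 and 27.2 CPM in D1 to D3. All 3 rd10 DMSO libraries were above W1 to W3, but D3 was well below D1 and D2. The log2 fold change without W4 was 0.58 (standard error 0.12, edgeR adjusted p-value 0.00362), and with W4 it was 0.31 (standard error 0.24, adjusted p-value 0.353).

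Among genes of transmitter transport and the cell surface, Slc17a6 measured 86.0, 83.1 and 78.0 CPM in W1 to W3, 121 CPM in W4 and 114, 109 and 108 CPM in D1 to D3. The rd10 values sat close together and clear of W1 to W3, and the log2 fold change was 0.43 (standard error 0.06, edgeR adjusted p-value 0.000611) without W4. Thy1 measured 204, 205 and 183 CPM in W1 to W3, 294 CPM in W4 and 287, 273 and 254 CPM in D1 to D3. It rose 1.37-fold without W4, a log2 fold change of 0.47 (standard error 0.07, edgeR adjusted p-value 0.00109). For both genes W4 was above every rd10 library. With W4 the log2 fold changes were 0.26 for Slc17a6 (edgeR adjusted p-value 0.255) and 0.29 for Thy1 (adjusted p-value 0.240).

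Of the neurofilament triplet, the intermediate filaments that set the calibre of large axons, Nefm and Nefh passed the test without W4 and Nefl did not, and the difference between them was not tested. Nefl measured 439, 445 and 394 CPM in W1 to W3, 575 CPM in W4 and 559, 543 and 420 CPM in D1 to D3. D3 lay within the range of W1 to W3, so the groups overlapped. Its log2 fold change without W4 was 0.26 (standard error 0.12, edgeR adjusted p-value 0.086), and without W4 and D3 it was 0.38 (adjusted p-value 0.00076). Nefm measured 118, 108 and 113 CPM in W1 to W3, 181 CPM in W4 and 153, 164 and 137 CPM in D1 to D3. Nefh measured 90.1, 92.9 and 97.2 CPM in W1 to W3, 125 CPM in W4 and 129, 131 and 118 CPM in D1 to D3. In neither of these did the rd10 DMSO libraries overlap with W1 to W3, and both rose by 0.44 on the log2 scale without W4 (edgeR adjusted p-values 0.00176 for Nefm and 0.000702 for Nefh). With W4 the log2 fold changes were 0.13 for Nefl, 0.22 for Nefm and 0.31 for Nefh (edgeR adjusted p-values 0.559, 0.397 and 0.187).

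Of the cytosolic proteins of axons and terminals, Sncg measured 75.3, 69.8 and 64.5 CPM in W1 to W3, 104 CPM in W4 and 98.4, 87.7 and 93.9 CPM in D1 to D3. Stmn2 measured 79.3, 82.5 and 68.7 CPM in W1 to W3, 103 CPM in W4 and 102, 96.9 and 101 CPM in D1 to D3. D3 was not low in either gene, and neither overlapped with W1 to W3. The log2 fold changes without W4 were 0.43 for Sncg (standard error 0.08, edgeR adjusted p-value 0.00215) and 0.39 for Stmn2 (standard error 0.08, adjusted p-value 0.00373). With W4 they were 0.25 and 0.26 (edgeR adjusted p-values 0.290 and 0.208). Over all 9 genes, the rd10 DMSO libraries were all above W1 to W3 in 8, and 33.7% of all genes tested had this order.

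**Figure D1:**
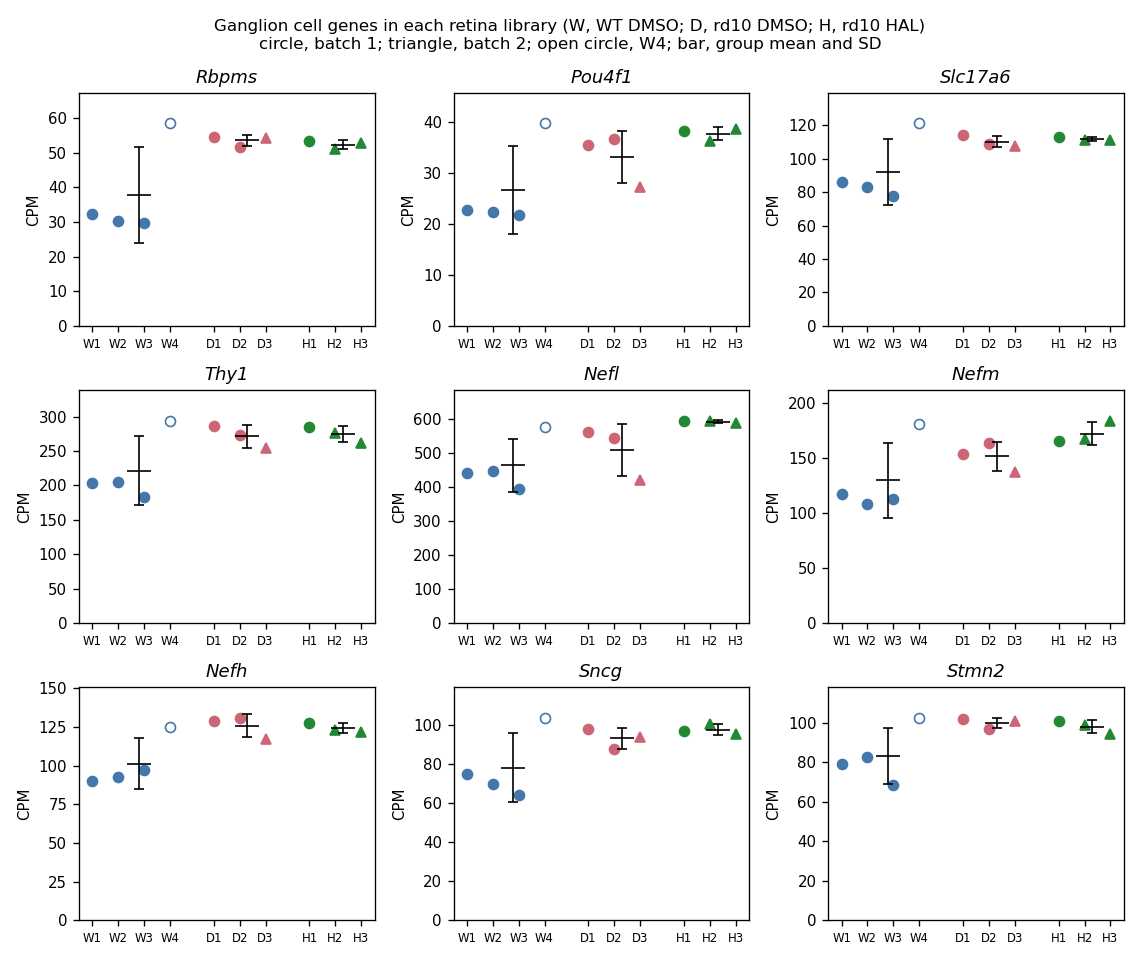
Level of each of the 9 genes in CPM, on a linear axis from 0, in the WT DMSO (W), rd10 DMSO (D) and rd10 HAL (H) libraries; circles are batch 1, triangles batch 2, the open circle is W4 and black bars are the group mean and SD. W1 to W3 lie lowest in each panel except that of Nefl, where D3, at 420 CPM, falls among them, and W4 lies level with or above the rd10 libraries.

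Isl2, a LIM-homeodomain factor of ganglion cells that project to the opposite side of the brain, was counted from its transcripts. The sums were 71, 62 and 55 counts in W1 to W3, 125 in W4, 89, 164 and 36 in D1 to D3 and 115, 179 and 150 in H1 to H3. These equalled 3.37, 3.13 and 3.21 CPM in W1 to W3, 4.64 CPM in W4, 3.65, 4.11 and 2.21 CPM in D1 to D3 and 4.26, 5.20 and 4.49 CPM in H1 to H3. D3 was the lowest of all libraries and the halofantrine libraries were above W1 to W3. Fitted together with the gene counts, Isl2 had a log2 fold change of 0.08 (standard error 0.26, edgeR adjusted p-value 0.811) in rd10 DMSO against WT without W4. The 95% interval ran from -0.52 to 0.68, and with W4 the log2 fold change was -0.11 (edgeR adjusted p-value 0.795).

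How the level of ganglion cell genes reads depends on what it is set against. The 15 rod markers fell from a sum of 87389 to 91932 CPM in W1 to W3 to 5031 to 13199 CPM in the rd10 DMSO libraries, all 15 of them called lower with a median log2 fold change of -3.13, and CPM is a share of all counts. All these counts and medians are without W4, where 32.3% of all genes were called higher and 29.9% lower. The median log2 fold change was 0.69 for 13 amacrine markers, of which 10 rose, 0.97 for 14 bipolar markers, of which 10 rose and 1 fell, and 0.98 for 8 horizontal cell markers, of which 6 rose and 1 fell. Gad1, which makes the transmitter GABA in amacrine cells, rose by 0.63 on the log2 scale. Of the Muller glia markers, 10 of 11 rose, with a median of 0.77, and all 10 gliosis markers rose, with a median of 2.34, with Gfap, the filament of reactive glia, at 3.32. All 6 microglia markers rose, with a median of 2.21, and of 10 cone markers 4 rose and 2 fell, with a median of 0.13. Scaled to amacrine and bipolar genes, 0 cone markers rose and 7 fell, with a median of -0.53, 4 horizontal cell markers rose and 3 fell, with a median of 0.31, and 5 Muller glia markers rose and 1 fell, with a median of 0.11. All 10 gliosis and 6 microglia markers were still called higher in that fit, with medians of 1.69 and 1.54, where 6.0% of all genes were called higher and 72.4% lower. With W4 no gene of these lists was called by edgeR (0 higher and 0 lower in each), and all 15 rod markers had an unadjusted p-value under 0.05. The medians with W4 were -2.75 for rod, 0.45 for amacrine, 0.65 for bipolar, 0.61 for horizontal cell, 0.52 for Muller glia, 1.56 for gliosis, 1.25 for microglia and 0.11 for cone markers, against 0.26 for the 9 genes. DESeq2 with W4 called 11 rod markers lower, 3 gliosis markers (with no adjusted p-value for 3 others) and 1 cone marker higher, and 0 in the other 5 of these lists. The share of all genes that DESeq2 called is not given, here or for the lists below. The lists were not tested against the 9 genes.

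**Figure D2:**
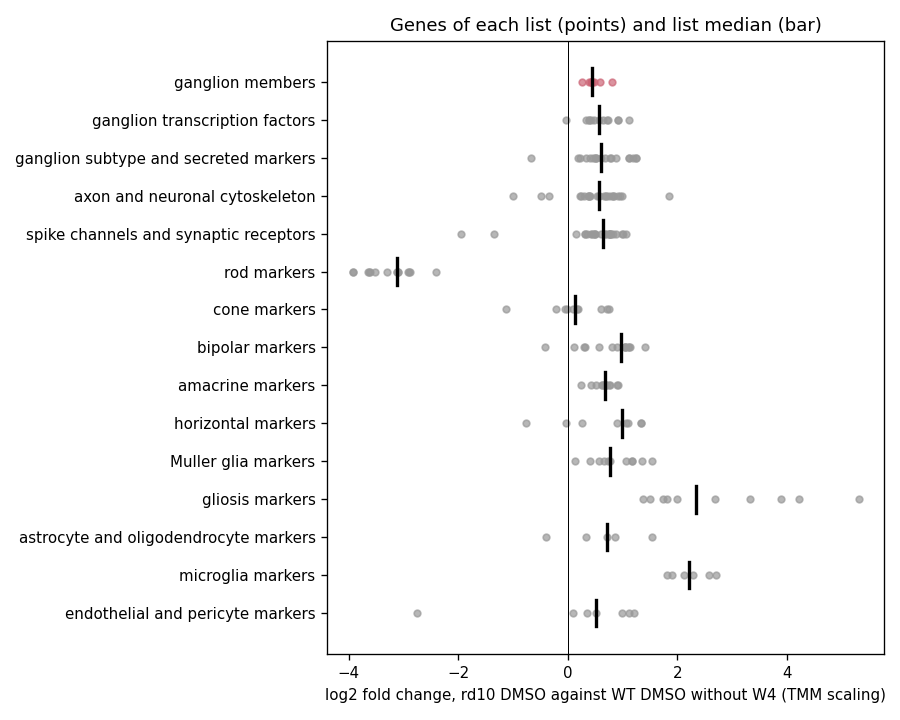
Log2 fold change of rd10 DMSO against WT DMSO without W4 (TMM scaling) for the genes of each list, 1 point a gene, with a bar at the list's median. The ganglion cell genes lie between 0.26 and 0.81 with a median of 0.44, where the medians are 0.69 for amacrine, 0.97 for bipolar and -3.13 for rod markers.

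The difference between the mean log2 CPM of the 9 genes and that of the amacrine markers gives the same comparison without a library factor. It was 0.30 ± 0.02 (SD, n = 3) in W1 to W3, 0.20 in W4 and 0.13 ± 0.10 (SD, n = 3) with rd10 DMSO. Against the bipolar markers it was -0.40 ± 0.01 (SD, n = 3) in W1 to W3, -0.59 in W4 and -0.67 ± 0.04 (SD, n = 3) with rd10 DMSO. The rd10 DMSO libraries were below W1 to W3 in both differences, with no overlap. In the fit scaled to both lists, Slc17a6 fell by 0.23, Thy1 by 0.19, Nefl by 0.40, Nefm by 0.23, Nefh by 0.22, Sncg by 0.23 and Stmn2 by 0.27 on the log2 scale, with edgeR adjusted p-values from 0.0053 to 0.048. Rbpms, at 0.15, and Pou4f1, at -0.09, were not called. In that fit 72.4% of all genes were called lower and 6.0% higher, so a fall was not particular to these genes. Amacrine and bipolar markers were themselves not shown to be constant, so this scaling gives a ratio between cell classes. The cell numbers were not measured.

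**Figure D3:**
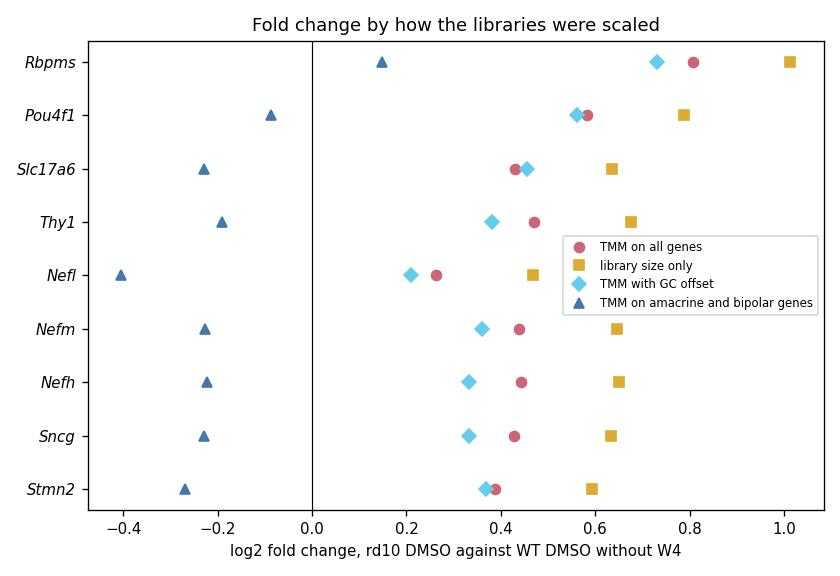
Log2 fold change of each gene in rd10 DMSO against WT DMSO without W4 under TMM on all genes, library size alone, TMM with an offset for GC content, and TMM on amacrine and bipolar genes. All 9 genes are above 0 in the first 3 settings, and 8 of 9 are below 0 in the last, with Rbpms at 0.15.

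W4 itself was high in ganglion cell genes. In 6 of the 9 genes it lay above all 6 rd10 libraries and in 3, the neurofilament genes, within their range. Against the mean of W1 to W3 the level in W4 was 1.90-fold for Rbpms, 1.78-fold for Pou4f1 and 1.60-fold for Nefm, and 1.34- to 1.49-fold for the others. The mean log2 CPM of the 9 genes was 7.04 in W4, 6.37 to 6.48 in W1 to W3, 6.80 to 6.96 in the rd10 DMSO and 6.96 to 6.98 in the rd10 HAL libraries. The label of W4 was not tested further.

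Other genes of ganglion cells and of axons were taken from lists chosen with earlier results of these data known. Without W4, 11 of 13 transcription factors rose and 0 fell, with a median log2 fold change of 0.58, where 32.3% of all genes were called higher and 29.9% lower. With W4, 0 were called (1 at an unadjusted p-value under 0.05, against 26.6% of all genes, and 1 higher by DESeq2), with a median of 0.38. Isl1, a LIM-homeodomain factor that bipolar and amacrine cells also use, rose from 76.9 to 78.2 CPM in W1 to W3 to 161 to 173 CPM, by 1.12 on the log2 scale. Ebf3, a helix-loop-helix factor, rose by 0.92 and its relative Ebf1 by 0.72. Pou4f2, the paralogue Brn3b, measured 7.45, 8.32 and 10.04 CPM in W1 to W3 and 12.7, 12.7 and 9.84 CPM in D1 to D3, which overlapped, and rose by 0.47 (edgeR adjusted p-value 0.037).

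Of 19 subtype and secreted markers, 15 rose and 1 fell without W4, against 32.3% higher and 29.9% lower of all genes. With W4, 0 were called (7 at an unadjusted p-value under 0.05, against 26.6% of all genes, and 1 higher by DESeq2), with a median of 0.42. Kcng4, a potassium channel subunit that marks alpha ganglion cells, rose by 1.25, Col25a1 by 1.19 and Syt2, a synaptotagmin that bipolar cells also use, by 1.11 on the log2 scale. Jam2, an adhesion molecule that marks one ganglion cell type, fell from 190 to 212 CPM in W1 to W3 to 111, 111 and 150 CPM in D1 to D3, by 0.67 on the log2 scale. Opn4, the photopigment melanopsin of intrinsically photosensitive ganglion cells, was read from transcripts at 5.08, 5.09 and 5.08 CPM in W1 to W3 and 8.44, 7.43 and 8.98 CPM in D1 to D3, and rose by 0.71 (edgeR adjusted p-value 0.00324). Tbr1, a transcription factor of ganglion cell types, was also read from transcripts and rose by 0.60. Opn4 and Tbr1 are named here after their values were seen. Of the listed genes read in this way, 3 of 6 transcription factors and 3 of 4 subtype markers rose and 0 fell. In the fit scaled to amacrine and bipolar genes, Isl1, Ebf3, Kcng4, Syt2 and Col25a1 also rose, by 0.46, 0.26, 0.59, 0.44 and 0.53. Isl1 is itself on the bipolar list used for that scaling. Ebf1, at 0.06, and Pou4f2, at -0.20, were not called there, and Jam2 fell by 1.32. Opn4 and Tbr1 were not fitted with that scaling. In that fit 2 transcription factors rose and 4 fell, and 5 subtype markers rose and 4 fell, where 6.0% of all genes were called higher and 72.4% lower.

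Of 24 genes of the axon and neuronal cytoskeleton, 17 rose and 3 fell without W4, against 32.3% higher and 29.9% lower of all genes. With W4, 0 were called (3 at an unadjusted p-value under 0.05, against 26.6% of all genes, and 0 by DESeq2), with a median of 0.36. Prph, the intermediate filament peripherin, rose from 3.03 to 3.38 CPM in W1 to W3 to 10.6 to 12.7 CPM, by 1.85 on the log2 scale. Ina, alpha-internexin, which assembles with the neurofilament triplet, rose by 0.85 and Crmp1 by 0.80. Dpysl3, Map1b and Nfasc fell by 0.99, 0.50 and 0.34. Of 24 spike channels and synaptic receptors, 20 rose and 2 fell without W4, against the same 32.3% and 29.9%. With W4, 0 were called (5 at an unadjusted p-value under 0.05, against 26.6% of all genes, and 2 lower by DESeq2), with a median of 0.41. Gria1 and Gria4, AMPA receptor subunits, rose by 1.06 and 0.68 and Kcna2, an axonal potassium channel, by 0.89. Scaled to amacrine and bipolar genes, Prph and Gria1 also rose, by 1.19 and 0.40, while Ina, Crmp1, Kcna2 and Gria4 were not called. That fit gave 3 higher and 8 lower cytoskeletal genes, and 3 higher and 7 lower channels and receptors, against the same 6.0% and 72.4% of all genes.

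Genes of the response to axon injury were few in the gene table, 6 of 18. Csf1, a cytokine of injured neurons and other cells, rose from 3.75 to 4.18 CPM in W1 to W3 to 18.0 to 21.1 CPM, by 2.31 on the log2 scale without W4. With W4 its log2 fold change was 1.38 (standard error 0.58, edgeR adjusted p-value 0.188) and it was not called, nor was any other of the 6 (4 at an unadjusted p-value under 0.05, against 26.6% of all genes, and 1 lower by DESeq2). Ddit4, Gadd45a and Ddit3, genes of stress responses, fell by 1.28, 1.20 and 0.35 without W4. Cebpg, at 0.04, was not called. Jun, whose rise is an early mark of optic nerve injury, measured 26.5, 27.1 and 22.4 CPM in W1 to W3 and 28.5, 28.1 and 11.3 CPM in D1 to D3, with no call (edgeR adjusted p-value 0.72). In all, 1 of the 6 was called higher and 3 lower without W4, against 32.3% and 29.9% of all genes. Scaled to amacrine and bipolar genes, 1 was called higher (Csf1, by 1.65) and 5 lower, with a median of -0.92, against 6.0% and 72.4% of all genes. Cebpg, at -0.62, and Jun, at -0.82, were then called lower (edgeR adjusted p-values 0.00020 and 0.019). Atf3, another such gene, was read from transcripts at 5.03, 4.74 and 6.07 CPM in W1 to W3 and 5.94, 6.87 and 8.12 CPM in D1 to D3, overlapping. In the transcript-based fit 0 of 10 further injury genes were called. Jun and Atf3 are named here after their values were seen.

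The comparison of rd10 HAL with rd10 DMSO asks whether the drug changed these genes. It was not seen to: 0 of the 9 genes was called, as was 0.0% of 11692 genes, and 0 of the 9 had an unadjusted p-value under 0.05, against 4.76% of all genes (edgeR). DESeq2 called 0 of the 9 as well. The log2 fold changes lay between -0.03 and 0.22, with a median of 0.02. For 6 genes the 95% intervals reached no further than -0.17 and 0.22, and for Nefl, Pou4f1 and Nefm it reached to 0.47, 0.45 and 0.38.

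The 3 genes with the highest fold changes shared a feature, a low value in D3. Nefl was at 593, 594 and 586 CPM in H1 to H3 against 559, 543 and 420 CPM in D1 to D3. All halofantrine libraries were above all DMSO libraries, and the halofantrine values lay within a narrow range. The log2 fold change was 0.22 (standard error 0.11, edgeR adjusted p-value 0.883), and it was 0.10 without D3. Nefm was at 165, 167 and 184 CPM in H1 to H3 against 153, 164 and 137 CPM in D1 to D3, again without overlap. The log2 fold change was 0.18 (standard error 0.08, adjusted p-value 0.883) and 0.12 without D3. Of all genes tested, 6.91% had the halofantrine libraries all above the DMSO libraries, and among the 9 genes Nefl and Nefm did. Pou4f1 was at 38.2, 36.2 and 38.6 CPM in H1 to H3 against 35.5, 36.6 and 27.2 CPM in D1 to D3, which overlapped, with 0.18 (standard error 0.12) and 0.07 without D3.

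The other 6 genes had nearly the same levels in both groups. Rbpms was at 53.4, 51.0 and 52.7 CPM in H1 to H3, within the range of its DMSO libraries except for H2, just below it, and its log2 fold change was -0.03 (95% interval -0.17 to 0.10). Slc17a6 was at 113, 111 and 111 CPM and Thy1 at 285, 277 and 261 CPM, with log2 fold changes of 0.02 and 0.01. Nefh was at 128, 123 and 122 CPM, Sncg at 97.4, 101 and 95.4 CPM and Stmn2 at 101, 99.0 and 94.6 CPM in H1 to H3. Their groups overlapped, with log2 fold changes of -0.02, 0.07 and -0.03. Isl2 had a log2 fold change of 0.46 (standard error 0.24, edgeR adjusted p-value 0.879), with D3 its lowest library.

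**Figure D4:**
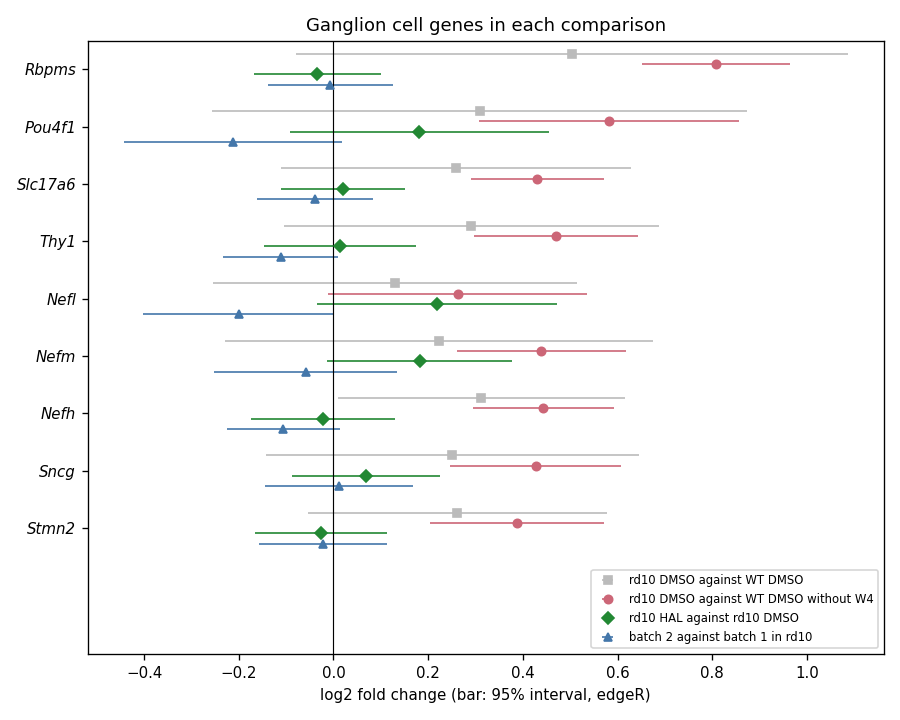
Log2 fold change of each gene with its 95% interval (edgeR) for rd10 DMSO against WT DMSO with and without W4, rd10 HAL against rd10 DMSO, and batch 2 against batch 1 within rd10. Without W4 the intervals of 8 genes lie above 0, and all intervals of the halofantrine and batch comparisons hold 0, that of Nefl between batches ending at 0.00152.

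Batch and treatment were partly joined, since batch 1 held 2 DMSO libraries with 1 halofantrine library and batch 2 held 1 with 2. Within batch 1 the difference in log2 CPM between H1 and the mean of D1 and D2 was 0.11 for Nefl, 0.08 for Pou4f1 and 0.06 for Nefm. Within batch 2 the difference between the mean of H2 and H3 and D3 was 0.49, 0.46 and 0.35. The other 6 genes lay between -0.03 and 0.07 in batch 1 and between -0.07 and 0.08 in batch 2. A batch term in the fit gave log2 fold changes of 0.30 for Nefl, 0.26 for Pou4f1 and 0.20 for Nefm, with edgeR adjusted p-values of 0.268, 0.273 and 0.287. In batch 2 the DMSO side was D3 alone, whose title carries another set name than those of H2 and H3, so a treatment effect there, the set and the state of D3 cannot be told apart.

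**Figure D5:**
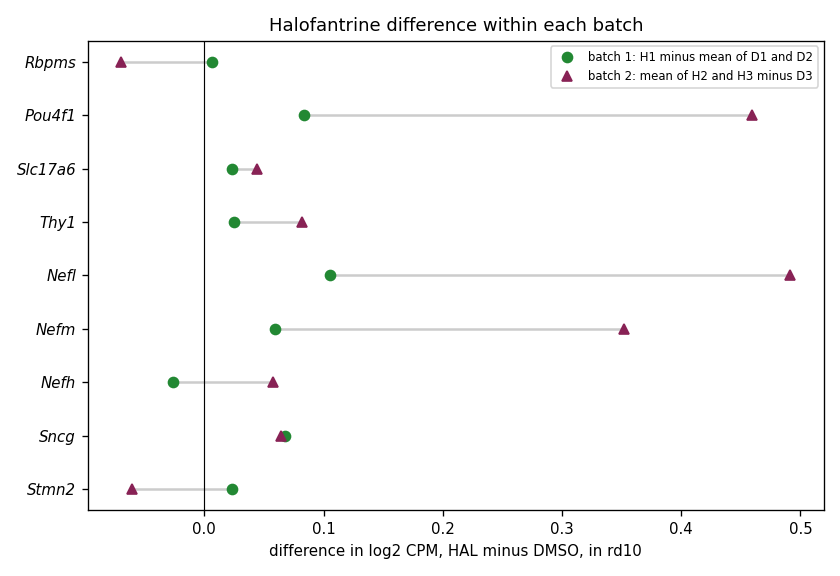
Difference in log2 CPM between halofantrine and DMSO in rd10, within batch 1 (circles, H1 minus the mean of D1 and D2) and within batch 2 (triangles, mean of H2 and H3 minus D3). Pou4f1, Nefl and Nefm lie at 0.46, 0.49 and 0.35 in batch 2 and at or below 0.11 in batch 1, and the other genes lie near 0 in both.

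Batch 2 against batch 1, with the treatment as a term, called 0 of the 9 genes, against 4.78% of 11692 genes, and 0 of the 9 at an unadjusted p-value under 0.05, against 27.6% (edgeR; DESeq2 also called 0). The largest differences were those of Pou4f1, -0.21 (edgeR adjusted p-value 0.208), and Nefl, -0.20 (adjusted p-value 0.183). Without H1, which leaves D3 as the library that sets the batch difference, both were called lower, Pou4f1 at -0.41 (adjusted p-value 0.023) and Nefl at -0.39 (adjusted p-value 0.008). That fit sets D3 alone against D1 and D2, so D3 is assumed to vary like the other libraries and its own spread was not measured. The 15 rod markers all rose in batch 2, with a median of 1.17, while the 9 genes had a median of -0.06. Of the lists of ganglion cell and axonal genes, Dpysl3 and Jam2 rose in batch 2, by 0.67 and 0.36, and both had fallen in rd10 DMSO against W1 to W3. D3 was thus both the shallowest library and, at 13199 CPM, that with the highest sum of rod markers in rd10.

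The genes did not share the low value of D3 alike. Against the mean of D1 and D2, the level in D3 was 24.6% lower for Pou4f1, 23.8% lower for Nefl and 13.3% lower for Nefm. It was 9.64% lower for Nefh, 9.20% lower for Thy1 and 3.32% lower for Slc17a6. Rbpms, Sncg and Stmn2 were at 102%, 101% and 101% of that mean. Of all genes, 10.5% were as low in D3 as Pou4f1 and 11.2% as low as Nefl on the log2 scale, so these deviations were not rare in that library. G and C content was 47.0% for Pou4f1 and 48.8% for Nefl, and 46.1% for Stmn2 and 50.9% for Rbpms, which were not low. With a GC offset the log2 fold changes in the halofantrine comparison were 0.20 for Pou4f1 and 0.23 for Nefl.

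Halofantrine-treated rd10 retinas were also set against WT. With W4 kept, 0 of the 9 genes was called, against 0.00855% of 11699 genes, and DESeq2 called 0 of the 9. Without W4, 9 of 9 rose, against 35.7% of all genes, with log2 fold changes from 0.35 for Stmn2 to 0.76 for Rbpms. Pou4f1 rose by 0.75 (edgeR adjusted p-value 6.28e-06) and Nefl, which was not called with DMSO, by 0.47 (adjusted p-value 0.000171). Isl2 rose by 0.52 (adjusted p-value 0.0232), and with W4 it was at 0.37 and not called (edgeR adjusted p-value 0.223). Scaled to amacrine and bipolar genes, 7 of 9 fell and 0 rose, where 80.6% of all genes were called lower, and the median log2 fold change was -0.35 over the 9 genes and -0.84 over all genes. This comparison and that of rd10 DMSO with WT share W1 to W3, and whether the fold changes of Nefl differ between them is the halofantrine comparison itself, where the adjusted p-value was 0.883.

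In the 4 lists of ganglion cell and axonal genes, halofantrine against DMSO gave 0 calls among 13 transcription factors, 19 subtype markers, 24 cytoskeletal genes and 24 channels and receptors. The number with an unadjusted p-value under 0.05 was 0, 2, 2 and 0, against 4.76% of all genes, and 0.0% of all genes were called. The genes given next were taken by the rank of their p-value within a list. Col25a1 was at -0.21 and Igf1 at -0.19. Basp1, a protein of growth cones, was at 0.29 and Sptbn4, a spectrin of the axon initial segment, at 0.39, with D3 at 60.9 CPM the lowest rd10 library. Pou4f2 was at 0.28 and Sox4 at 0.26, Grin1 at 0.18 and Kcna2 at -0.13, and Ddit4 of the injury list was at 0.41. The adjusted p-value was 0.883 for each (edgeR). Penk, named after its values were seen, which encodes enkephalin, varied from 5.14 to 74.7 CPM within groups and gave no call.

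Isoforms were read from the transcript table for the genes with more than 1 transcript above 5% of the gene. Rbpms was mostly Rbpms-203, a protein-coding transcript of 2466 bases, and Rbpms-213, of 2547 bases. Rbpms-203 took 37.1% to 58.6% of the gene in the WT libraries, 39.8% to 53.6% with rd10 DMSO and 37.3% to 43.6% with rd10 HAL, which overlapped. The main Pou4f1 transcript, Pou4f1-201, took 64.6% to 72.4%, 60.8% to 70.6% and 67.8% to 70.2%, and the rest was Pou4f1-202, which is annotated as a processed transcript without a protein. Isl2 was divided between Isl2-201, which codes for the protein, at 15.4% to 76.4% over all libraries, and Isl2-202, annotated as a target of nonsense-mediated decay. Shares between such similar transcripts are estimates, and those of Isl2 rest on few counts. In the remaining 7 genes a single transcript held at least 96.3% of the gene's counts in every library.

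By the distance between log2 CPM profiles, each centred over the 10 libraries, the genes outside the lists nearest to the mean of the 9 were Nsg2 at 0.08, Gng3 at 0.12, Nsg1 at 0.12, Kcnj3 at 0.13 and 9430041J12Rik at 0.13, where the median over all genes was 0.94. Nsg2 measured 151, 150 and 141 CPM in W1 to W3, 223 CPM in W4, 208, 199 and 188 CPM in D1 to D3 and 222, 209 and 207 CPM in H1 to H3. Among the 9 genes, measured against the mean of the other 8, Thy1 at 0.14 and Slc17a6 at 0.15 lay nearest to the shared profile. Rbpms, at 0.53, Pou4f1, at 0.43, and Nefl, at 0.40, lay farthest.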

How the data were processed

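RNA of whole retinas from 10 female mice was analysed, 1 library a mouse as far as the labels say. The authors prepared stranded polyA libraries and estimated counts with kallisto on GRCm39, per the labels. Tool versions are not given in the sources used here. The authors deposited expected (estimated) counts per gene and per transcript, and a normalized signal called CPM, which differed by no more than 0.937% from the CPM computed here for the 9 genes. A deposited table of the authors' own halofantrine comparison (fold changes and p-values) was not used. Symbols matched 11492 of 11702 identifiers.

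Estimated counts were rounded, filtered by filterByExpr, scaled by TMM and tested with the quasi-likelihood test of edgeR 4.0.16 (R 4.3.3), separately for each comparison on its own libraries, with Benjamini-Hochberg adjustment over all genes tested and calls at 0.05. Log2 CPM used a prior count of 2. Transcripts came from GENCODE M21 and promoters from RefSeq, both of another build, so the coordinates printed are those of the RefSeq promoters (GRCm38.p6) alone. Depth was 15512105 to 38160384 counts per library. Counts carry no molecular identifiers, and p-values measure the spread between these mice.

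Alternatives were DESeq2 1.42.0, limma-voom (limma 3.58.1), other scalings and filters, batch in the model, 1 model over all libraries, and each replicate left out in turn. Fits without W4, the GC offset, the scalings to amacrine or bipolar genes alone and transcript sums of listed genes that the gene table lacks were added after seeing the data. The fits were tested on simulated data. The genes and lists were chosen with earlier results of these data known. Genes named were the 10 genes, up to 3 per direction of each ganglion, axon, channel and injury list with the smallest p-value against WT, up to 2 against rd10 DMSO, defining genes of other cell classes, Pde6b and the 5 nearest genes. Some genes that this rule takes are not reported here.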

Additional observations from a re-analysis of the deposited data

Results flagged for a closer look

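In the WT group of 4, W4 stood apart from W1 to W3 in 6 of 13 values checked, each at a limit of 1 in 20. The values were not separate, since some are a mean of the same 9 genes or differences built from it. W4 was also already known to go against its label, so this count is no test of chance. The distance from W4 to its neighbour, divided by the span of the 4 values, was 0.904 for Rbpms, 0.947 for Pou4f1 and 0.869 for Nefm, all in CPM. It was 0.83 for the mean log2 CPM of the 9 genes, 0.84 for Isl2 from transcripts and 0.91 for the difference between the 9 genes and the bipolar markers, where W4 was the lowest library. The other values checked, those of Slc17a6, Thy1, Nefl, Nefh, Sncg and Stmn2 and the difference to the amacrine markers, did not pass the same limit.

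Nefh moved in opposite directions in the batches. In batch 1 H1 was below both DMSO libraries, and in batch 2 H2 and H3 were above D3. The difference between the batches in the log2 CPM difference was 0.0836, and it was not tested. Rbpms, at 0.0064 in batch 1 and -0.070 in batch 2, and Stmn2, at 0.023 and -0.060, also had differences of opposite sign, but there H1 lay between D1 and D2.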

How the results depend on the processing

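No paired analysis was possible because the replicate numbers were given in label order and each library is another mouse. Without W4, the count of genes called in rd10 DMSO against WT was 7 when scaled to amacrine and bipolar genes, 6 to amacrine genes alone and 8 to bipolar genes alone, all of them lower, where TMM on all genes gave 8 higher. For rd10 HAL against WT without W4 these counts were 7, 6 and 7, all lower, against 9 higher. Scaled to both lists, 72.4% of all genes were called lower for rd10 DMSO and 80.6% for rd10 HAL. TMM on all genes called 32.3% and 35.7% of them higher. No share over all genes is given here for scaling to a single list, nor with a replicate other than W4 left out. Under the other alternatives run without W4, apart from a batch term, the counts were 8 or 9 and 9, all higher. A batch term leaves D1 and D2, or H1 alone, against W1 to W3, so it is not counted here. By construction these scalings level the listed genes as a set and not each gene. Scaled to both lists, rd10 DMSO against WT without W4 still called 7 bipolar markers higher and 4 lower. Of the amacrine markers it called 1 higher and 2 lower. The scaling to both lists moved the median of all genes to -0.67 for rd10 DMSO and -0.84 for rd10 HAL. Library size alone moved it to 0.19 in both. With each replicate left out, the count went from 0 to 8 for rd10 DMSO against WT (8 without W4), from 0 to 9 for rd10 HAL against WT (9 without W4) and from 0 to 2 for the batches (2 lower without H1).

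Scaled to amacrine and bipolar genes, rd10 DMSO against WT with W4 gave log2 fold changes of -0.12 for Pou4f1, -0.19 for Slc17a6, -0.16 for Thy1, -0.34 for Nefl, -0.22 for Nefm, -0.15 for Nefh, -0.19 for Sncg and -0.20 for Stmn2. Without W4 they were -0.087, -0.23, -0.19, -0.40, -0.23, -0.22, -0.23 and -0.27. For rd10 HAL against WT without W4 they were -0.070, -0.38, -0.35, -0.35, -0.21, -0.42, -0.34 and -0.47, with Rbpms at -0.062. For halofantrine against DMSO, Slc17a6 was at -0.046 and Thy1 at -0.051. For the batches, Rbpms was at 0.12, Slc17a6 at 0.085, Thy1 at 0.013, Nefm at 0.067, Nefh at 0.019 and Stmn2 at 0.10.

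Small differences changed sign under other settings too, and the cause was not tested. For halofantrine against DMSO the GC offset gave Thy1 -0.037, Sncg -0.0050 and Stmn2 0.0062, and the batch term gave Nefh 0.014. With each replicate left out Thy1 lay between -0.026 and 0.059, Nefh between -0.064 and 0.010 and Stmn2 between -0.048 and 0.0049. For the batches Nefm was at 0.019 with no treatment term and Nefh at 0.076 with the GC offset, and with each replicate left out Rbpms lay between -0.044 and 0.034, Nefm between -0.21 and 0.088, Sncg between -0.022 and 0.049 and Stmn2 between -0.063 and 0.021. Nefl against WT without W4 was called higher with DESeq2 (0.27) and library size alone (0.47). It was also called higher with a batch term (0.38), but D3 was the only library of that fit outside the batch of the WT libraries. The batch term therefore took up D3, the library that overlapped with WT. It is no separate setting from leaving D3 out, where the log2 fold change was also 0.38.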
